A study of Mus musculus with 8 samples.

Results

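The genes described here encode the enzymes and regulators of cholesterol synthesis and of fatty acid synthesis and desaturation in cultured mouse muscle stem cells. They are 30 named genes, and a gene entered when its mean level over all 8 libraries was at least 0.5 TPM (transcript abundance, reads scaled for transcript length and library size). All 30 passed, of 16908 loci that reached this level among the 55223 in the table. The study sequenced poly(A) RNA from muscle stem cells of female wildtype C57BL/6J mice of 6 to 8 weeks, after a pulse of a bone morphogenetic protein (BMP) or of its solvent. The BMP4 group had 100 ng/ml BMP4 for 1 h (isolations 48 and 54), and its vehicle group, called vehicle_a, came from the same isolations. The BMP6 group had 100 ng/ml BMP6 for 1 h (isolations 75 and 77), and its vehicle group, vehicle_b, came from those isolations. Vehicle was 4 mM HCl with 0.1% BSA. All 4 groups, vehicles included, grew on Matrigel for 2 days of expansion and spent the last 6 h before the pulse in serum-free medium with 200 ng/ml of BMPR-IA/ALK3-Fc, a soluble receptor that binds BMPs. Each isolation gave 1 stimulated and 1 vehicle library, so n = 2 per group. No ligand was tested in the isolations of the other, so ligand and experiment cannot be told apart.

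Cholesterol is built from acetyl units through mevalonate, isoprenoid diphosphates, squalene and lanosterol. Fatty acids are built from malonyl units by Acaca and Fasn and are then elongated and desaturated. Most of these genes are transcribed under the sterol regulatory element-binding proteins, SREBP-1 (gene Srebf1) and SREBP-2 (gene Srebf2). Scap escorts the SREBP precursors out of the endoplasmic reticulum when sterol is low, and Insig1 holds Scap and the precursors back when sterol is high. Removing serum removes lipoprotein cholesterol from the medium, a standard way of turning the pathway on, and all 4 groups had this step.

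Promoter letters are shown for Insig1, Idi1 and Hmgcs1, which had the smallest p-values of the 30 genes after BMP4 with isolation as a block, and for Srebf2, which had the smallest between the vehicle groups. RefSeq promoters (mouse build GRCm38.p6, 250 bases before to 50 after the start) were held for 23 of the 30 genes. The letters searched on both strands were TCACNCCAC (a sterol regulatory element), CCAAT (NF-Y), GGGCGG (Sp1) and CACGTG (an E-box). No motif contains another. Each line gives the 120 bases upstream of the start that hold the most matches, 5′ to 3′ on the gene's strand, with the matches in capitals. All 4 genes lie on the plus strand, at chr5:28071183-28071302, chr13:8885486-8885605, chr13:119690214-119690333 and chr15:82147134-82147253 of GRCm38.p6, in the order shown.
Insig1: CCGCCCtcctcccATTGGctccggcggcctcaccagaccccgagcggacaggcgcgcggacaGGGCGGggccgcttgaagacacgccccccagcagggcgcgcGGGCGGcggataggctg
Idi1: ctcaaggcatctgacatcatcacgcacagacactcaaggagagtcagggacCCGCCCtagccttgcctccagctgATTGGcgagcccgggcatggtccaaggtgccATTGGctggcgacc
Hmgcs1: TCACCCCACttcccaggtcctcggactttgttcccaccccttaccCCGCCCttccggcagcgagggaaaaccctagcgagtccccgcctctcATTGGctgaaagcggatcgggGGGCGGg
Srebf2: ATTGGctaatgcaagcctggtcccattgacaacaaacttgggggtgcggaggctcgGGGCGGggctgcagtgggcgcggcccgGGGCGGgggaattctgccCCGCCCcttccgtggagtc

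ATTGG is CCAAT read on the other strand, and CCGCCC is GGGCGG read on the other strand. The sterol regulatory letters occurred in 1 of the 29 windows held for the 30 genes, that of Hmgcs1 (3.45%), and in 1.24% of all 32851 windows in the table. NF-Y letters occurred in 65.5% of the genes' windows and in 37.4% of all windows, and Sp1 letters in 75.9% and 35.7%. E-box letters occurred in 20.7% of the genes' windows, Insig1, Dhcr7, Hsd17b7, Sc5d and Scap among them, and in 7.15% of all windows. These matches are descriptions of letters and no test was made on them.

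Estimated reads per library ranged from 48012825 to 58002740. The BMP target Id1 had 349.4 and 364.7 TPM after BMP4 against 149.4 and 100.0 TPM in its vehicles, and 379.2 and 403.2 TPM after BMP6 against 103.3 and 116.7 TPM in its vehicles. Without the isolation block it did not pass for either ligand (limma adjusted p = 0.156 for BMP4 and 0.0905 for BMP6), and with the block it passed for both (0.0367 and 0.0481). All 8 markers of muscle stem cells and myoblasts passed 0.5 TPM, with a summed level of 1428.4 to 3267.3 TPM over the 8 libraries. The 6 adipocyte markers summed to at most 0.512 TPM in any library, and Adipoq, Lep, Cidec and Retn were listed at 0 in all 8. The 4 endothelial markers summed to at most 1.27 TPM and the 5 immune markers to at most 2.11 TPM. Other lists were not near 0. The 4 pericyte markers summed to 7.91 to 44.8 TPM, mostly Cspg4. Pdgfrb had 3.43 to 10.9 TPM in the BMP4 experiment and at most 0.294 TPM in the BMP6 experiment. The 6 fibro-adipogenic markers summed to 10.6 to 16.1 TPM, and only 1 of them, Ly6a, passed 0.5 TPM. The 4 Schwann cell markers summed to 4.44 to 11.7 TPM.

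By locus, the means of the 30 genes ran from 14.3 TPM for Sc5d to 475.3 TPM for Scd2 over the 8 libraries. Their loci held from 664 estimated reads (Ebp, lowest library) to 128318 (Scd2, highest library). The Tm7sf2 locus, with a mean of 35.5 TPM, also holds other genes. Its transcripts named Tm7sf2 had 4.61 to 9.55 TPM per library, less than Sc5d. Scd2, a stearoyl-CoA desaturase that makes monounsaturated fatty acids, was the most abundant, followed by Fdps, which makes farnesyl diphosphate, at 303.8 TPM. Idi1, the isopentenyl diphosphate isomerase, had a mean of 147.2 TPM, and Hmgcs1, which makes HMG-CoA, a mean of 143.3 TPM. Together the 30 genes summed to 1599.1 to 2894.0 TPM per library. The 2 libraries of isolation 77 had the lowest sums, 1599.1 TPM after BMP6 and 1620.1 TPM in vehicle, and the other 6 lay between 2469.1 and 2894.0 TPM. Scd1 and Scd2 are close paralogs, as are Fads1 and Fads2 in the desaturase family and Acat2 with its neighbour copy. Multiply mapped reads were not corrected for by the authors, so levels within these pairs are uncertain. The loci of Srebf1, Fads1 and Scd2 each also hold a microRNA name. In the files' build, GRCm39, Scd2 lies on the plus strand at chr19:44282113-44295303 and Scd1 on the minus strand at chr19:44382894-44396148. Srebf1 lies at chr11:60089915-60111430 on the minus strand, and Srebf2 at chr15:82031382-82089580 on the plus strand. Insig1 lies at chr5:28276361-28283660, Idi1 at chr13:8935537-8942487 and Hmgcs1 at chr13:120151982-120169796, all on the plus strand.

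**Figure D1:**
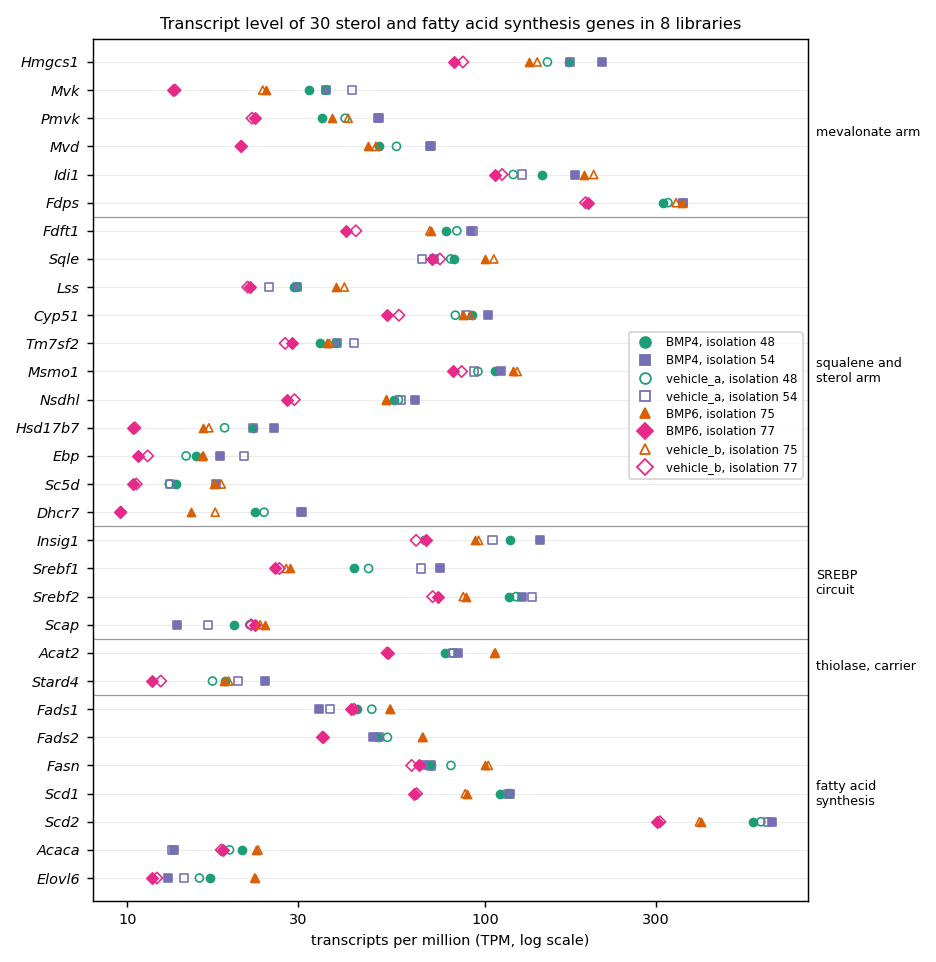
Level of each of the 30 genes in each library, in TPM on a log axis, grouped by role. Filled symbols are stimulated libraries and open symbols vehicle libraries, and each isolation has its own shape and colour. The symbols of isolation 77 are the lowest of the 8 for most enzymes, while stimulated and vehicle libraries of 1 isolation lie close together.

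The clearest pattern among these genes was between the 2 isolations of the BMP6 experiment. All 30 genes were lower in isolation 77 than in isolation 75, in the BMP6 libraries and in the vehicle libraries alike, while 42.1% of all loci were lower in both. The median difference of the 30 genes was -0.64 on the log2(TPM + 0.5) scale between the BMP6 libraries and -0.67 between the vehicle libraries, and over all loci it was -0.03 and -0.02. As levels, the median gene in isolation 77 had 64.4% of the isolation 75 value after BMP6 and 62.8% in vehicle. The 4 libraries come from 2 isolations, 1 per replicate, so this is a spread between replicates and has no test. In these bulk samples fewer cells with the pathway on and less RNA per cell cannot be told apart.

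The mevalonate arm differed most. Its 6 genes (Hmgcs1, Mvk, Pmvk, Mvd, Idi1 and Fdps) had medians of -0.83 after BMP6 and -0.84 in vehicle. Mvd, the mevalonate diphosphate decarboxylase, had 20.8 TPM after BMP6 and 20.8 TPM in vehicle in isolation 77, against 47.0 and 49.5 TPM in isolation 75. Mvk, the mevalonate kinase, had 13.4 and 13.6 TPM in isolation 77, against 24.4 and 23.9 TPM in isolation 75. In vehicle the isolation 77 value was 42.0% of the isolation 75 value for Mvd and 57.0% for Mvk. Fdps had 193.9 and 190.6 TPM in isolation 77, against 353.9 and 341.3 TPM in isolation 75. Pmvk, the phosphomevalonate kinase, had 22.8 and 22.3 TPM in isolation 77, against 37.3 and 41.4 TPM in isolation 75. The 2 libraries of an isolation were close to each other for all 4 genes, and the isolations did not overlap. The share of all loci without overlap was not counted.

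The 11 genes that turn farnesyl diphosphate into cholesterol (Fdft1, Sqle, Lss, Cyp51, Tm7sf2, Msmo1, Nsdhl, Hsd17b7, Ebp, Sc5d and Dhcr7) had medians of -0.63 after BMP6 and -0.66 in vehicle. By locus they ranged from -0.90 for Nsdhl to -0.32 for the mixed Tm7sf2 locus after BMP6. Nsdhl, a sterol decarboxylase, had 28.0 and 29.3 TPM in isolation 77, against 52.8 and 53.0 TPM in isolation 75. Fdft1, the squalene synthase, had 40.8 and 43.5 TPM in isolation 77, against 70.7 and 70.0 TPM in isolation 75. Lss, the lanosterol synthase, had 22.0 and 21.7 TPM in isolation 77, against 38.2 and 40.4 TPM in isolation 75. Nsdhl, Fdft1 and Lss again had isolations that did not overlap, which was not counted over all loci. The Tm7sf2 locus also holds transcripts of Vps51 and Zfpl1. The transcripts named Tm7sf2, a sterol reductase, had 4.61 TPM after BMP6 and 4.67 TPM in vehicle in isolation 77. In isolation 75 they had 9.55 and 9.45 TPM. Those transcripts thus differed more between the isolations than the whole locus did, and -0.32 is not their difference. Acat2, the cytosolic thiolase, had 53.6 and 53.2 TPM in isolation 77, against 106.0 and 106.7 TPM in isolation 75.

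The 7 fatty acid genes had medians of -0.48 after BMP6 and -0.45 in vehicle. Elovl6, an elongase, and Fads2, the delta-6 desaturase, differed most, with -0.93 and -0.91 after BMP6. Elovl6 had 11.7 and 12.1 TPM in isolation 77, against 22.7 and 22.7 TPM in isolation 75. Fads2 had 35.2 and 35.1 TPM in isolation 77, against 66.5 and 67.0 TPM in isolation 75. Acaca, the acetyl-CoA carboxylase, differed least, with -0.30, and the delta-5 desaturase Fads1 next, with -0.35.

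The regulators differed less than the enzymes. Their 4 genes had medians of -0.20 after BMP6 and -0.18 in vehicle. Srebf1 had 25.8 and 26.6 TPM in isolation 77, against 28.4 and 27.8 TPM in isolation 75. Scap had 22.8 and 22.2 TPM in isolation 77, against 24.3 and 23.5 TPM in isolation 75. Insig1, itself a known SREBP target, lay further apart, with 68.2 and 64.1 TPM in isolation 77 against 93.7 and 95.8 TPM in isolation 75.

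Isolation 77 lay at 30 of 30 lower under all 3 scalings tried: TPM, TPM over median-of-ratios size factors, and FPKM. The 8 markers of cycling cells had medians of -0.14 after BMP6 and -0.13 in vehicle between isolations 77 and 75. The 7 markers of differentiating muscle had medians of 0.17 and 0.43, with 3 of 7 lower after BMP6 and none lower in vehicle. All 4 Schwann cell markers were higher in isolation 77 in both cultures, with medians of 0.64 and 0.42 and a summed level of 8.25 and 8.38 TPM, against 4.44 and 5.20 TPM in isolation 75. The part of any of these in the lower sterol genes was not tested. In the BMP4 experiment the 30 genes had median differences between isolations 54 and 48 of 0.17 after BMP4 and 0.09 in vehicle. There, markers of differentiating muscle were higher in isolation 54 by medians of 1.84 and 1.76, and all 8 cycling markers were lower.

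**Figure D2:**
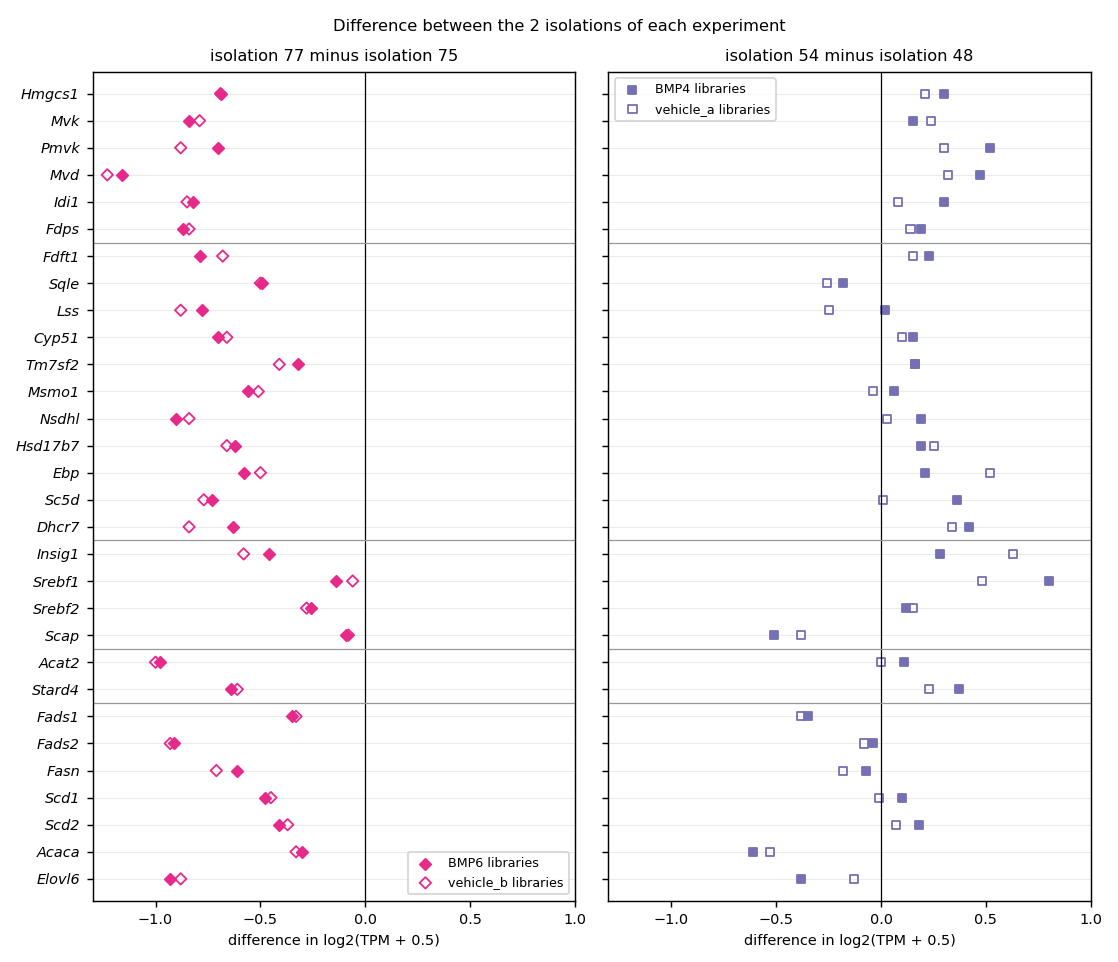
Difference in log2(TPM + 0.5) between the 2 isolations of each experiment for every gene, left for isolation 77 minus 75 and right for isolation 54 minus 48. Filled symbols compare the stimulated libraries and open symbols the vehicle libraries. On the left all 30 genes lie below 0 in both kinds of library, from -1.23 to -0.06, and on the right they lie on both sides.

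Vehicle cultures of the BMP6 experiment were next set against vehicle cultures of the BMP4 experiment, which asks how the pathway stood before any pulse. Both transcription factor genes and the main desaturase gene were lower in vehicle_b. Srebf2, Scd2 and Srebf1 passed the test, 3 of 30 genes or 10.0%, all 3 lower. Over all loci 27.2% passed and 16.6% passed and were lower (limma on log2(TPM + 0.5), Benjamini-Hochberg adjusted p under 0.05), so the share among these genes was below the background. The median over the 30 genes was -0.31 and over all loci -0.01. This fit counts the 2 libraries of an isolation as independent, although they are paired. With the mean of both libraries of each isolation, 1 of the 30 genes passed, where 13.4% of all loci passed.

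Srebf2 had 86.8 and 71.3 TPM in vehicle_b, against 121.9 and 135.1 TPM in vehicle_a, and the groups did not overlap. Its difference was -0.70 ± 0.15 (log2, standard error, limma adjusted p = 0.0222). Srebf1 had 27.8 and 26.6 TPM in vehicle_b, against 47.2 and 66.0 TPM in vehicle_a. Its difference was -1.03 ± 0.28 (limma adjusted p = 0.0394), with close values in vehicle_b and a wide spread in vehicle_a. Scd2 had 396.7 and 307.6 TPM in vehicle_b, against 589.0 and 616.3 TPM in vehicle_a, a difference of -0.79 ± 0.18 (limma adjusted p = 0.0278). All 4 libraries of vehicle_b and BMP6 lay below all 4 of vehicle_a and BMP4 for each of these 3 genes.

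Of the enzymes, Mvk had the lowest fitted difference, -1.09 ± 0.34, which did not pass (limma adjusted p = 0.0574). It had 23.9 and 13.6 TPM in vehicle_b, against 35.9 and 42.5 TPM in vehicle_a. Dhcr7, the last reductase of the pathway, had 17.6 and 9.59 TPM in vehicle_b, against 24.1 and 30.7 TPM in vehicle_a (-1.04 ± 0.34, limma adjusted p = 0.0644). Neither gene's groups overlapped, but the vehicle_b libraries lay far apart. Scd1, a close relative of Scd2, had 87.9 and 64.3 TPM in vehicle_b, against 116.6 and 116.1 TPM in vehicle_a (-0.63 ± 0.20, limma adjusted p = 0.0619).

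The highest fitted differences were those of Acaca, Idi1 and Sqle, and none passed. Acaca had 23.2 and 18.3 TPM in vehicle_b, against 19.3 and 13.3 TPM in vehicle_a (0.36 ± 0.27, limma adjusted p = 0.34). Idi1 had 200.9 and 111.4 TPM in vehicle_b, against 119.7 and 126.9 TPM in vehicle_a (0.28 ± 0.35). Sqle, the squalene epoxidase, had 105.7 and 74.7 TPM in vehicle_b, against 80.1 and 66.6 TPM in vehicle_a (0.28 ± 0.23). The groups overlapped for each of these 3. Fasn, the fatty acid synthase, had 102.0 and 62.3 TPM in vehicle_b, against 80.2 and 70.6 TPM in vehicle_a, also overlapping. Scap had 23.5 and 22.2 TPM in vehicle_b, against 22.0 and 16.8 TPM in vehicle_a, the only one of the 30 genes with both vehicle_b libraries above both vehicle_a libraries, where 34.9% of all loci had this. Both vehicle_b libraries lay below both vehicle_a libraries for 12 of the 30 genes (40.0%) and for 38.8% of all loci. The mixed Tm7sf2 locus is 1 of the 12. Its transcripts named Tm7sf2 overlapped, with 9.45 and 4.67 TPM in vehicle_b, against 7.22 and 7.36 TPM in vehicle_a.

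The median over the 30 genes and the calls, but not the direction of the 3 called genes, depended on single libraries. Without the isolation 77 vehicle the median over the 30 genes was 0.02 and no gene passed, and without the isolation 75 vehicle it was -0.59 and no gene passed. Loci called overall then numbered 5 and 12. Without the isolation 54 vehicle no gene of the 30 passed either, with a median of -0.17. The 3 called genes kept their direction with any vehicle library left out, from -1.26 to -0.79 for Srebf1, -0.84 to -0.56 for Srebf2 and -0.97 to -0.60 for Scd2. All 7 markers of differentiating muscle were lower in vehicle_b, with a median of -4.29 and summed levels of 310.0 and 455.8 TPM, against 3391.1 and 11106.4 TPM in vehicle_a. Their part in the lower Srebf1, Srebf2 and Scd2 levels was not tested.

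**Figure D3:**
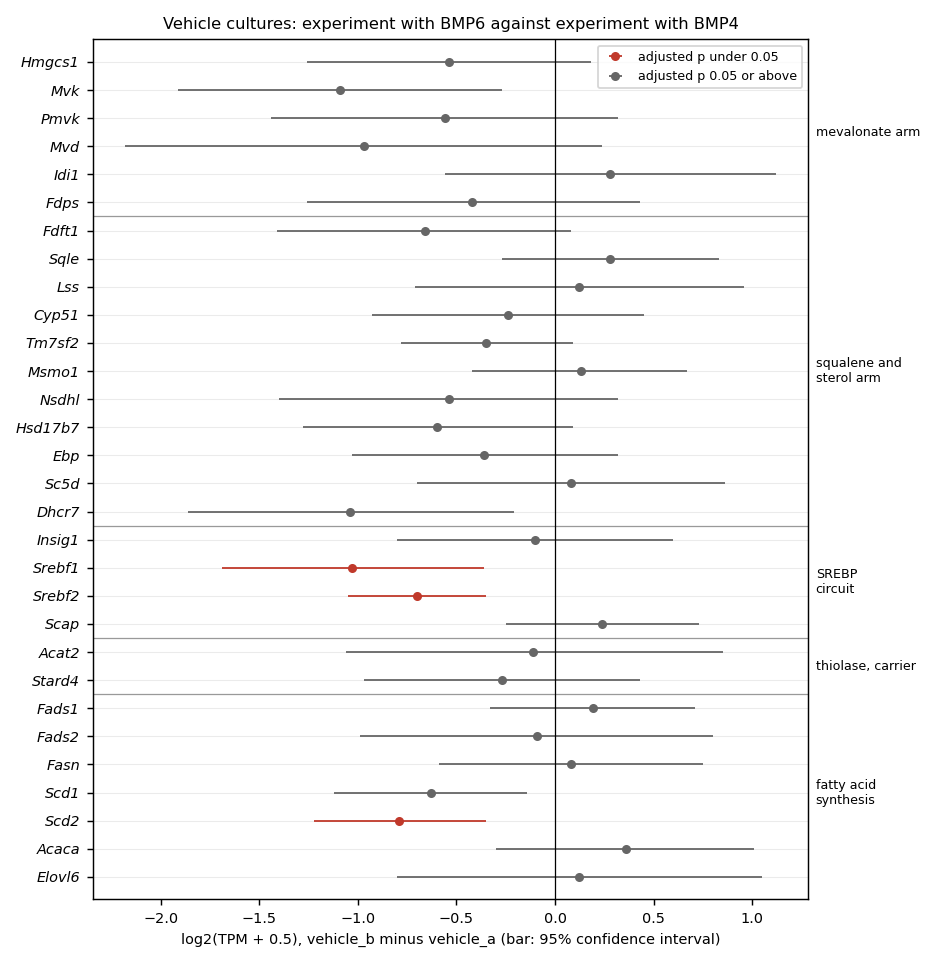
Fitted difference of each gene between vehicle cultures, vehicle_b minus vehicle_a on the log2(TPM + 0.5) scale, with 95% confidence intervals from limma. Red marks the genes that passed, Srebf1, Srebf2 and Scd2, all below 0. Most other intervals cross 0 and are wide.

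The 1 h BMP4 pulse was compared with the vehicle of the same isolations. No gene of the 30 passed with limma, with or without isolation as a block, where 0.0237% of loci passed without the block and 0.633% with it. With the block, 12 of the 30 genes had an unadjusted p under 0.05, a higher share than the 20.3% of all loci, and none did without it. That share was not tested. The median over the 30 genes was -0.02, the same as over all loci. Higher values in both isolations were seen for 10 genes (33.3%, against 28.3% of all loci), and lower values in both for 11 (36.7%, against 35.0% of all loci). The shares higher or lower in both isolations were near the background.

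Insig1, which retains the Scap and SREBP complex, had the widest difference. It had 117.3 and 142.1 TPM after BMP4, against 67.8 and 104.8 TPM in vehicle_a, and the groups did not overlap. The log2 change was 0.79 in isolation 48 and 0.44 in isolation 54, with a fitted value of 0.61 (95% interval 0.38 to 0.84 with the block, limma adjusted p = 0.0753). Idi1 had 144.5 and 178.4 TPM after BMP4, against 119.7 and 126.9 TPM in vehicle_a. Its fitted change was 0.38 (95% interval 0.23 to 0.53 with the block, limma adjusted p = 0.0803). Hmgcs1 had 171.6 and 211.8 TPM after BMP4, against 149.2 and 172.4 TPM in vehicle_a, with a fitted change of 0.25 (0.15 to 0.35, limma adjusted p = 0.0791). In isolation 54 the Hmgcs1 vehicle lay just above the isolation 48 BMP4 library, so those groups overlapped. Without the block the 95% intervals crossed 0: -0.09 to 1.31 for Insig1, -0.46 to 1.22 for Idi1 and -0.47 to 0.97 for Hmgcs1.

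The other genes higher in both isolations were mostly enzymes of the sterol arm: Sqle, the demethylase Cyp51, the methylsterol oxidase Msmo1, the reductase Hsd17b7 and the desaturase Sc5d, with the sterol carrier Stard4 and with Acaca. Their fitted changes ran from 0.07 (Sqle and Acaca) to 0.23 (Hsd17b7 and Sc5d). Hsd17b7 had 22.5 and 25.7 TPM after BMP4, against 18.7 and 22.4 TPM in vehicle_a. Cyp51 had 91.6 and 101.5 TPM after BMP4, against 82.5 and 88.5 TPM in vehicle_a. Msmo1 had 106.6 and 111.0 TPM after BMP4, against 95.4 and 92.9 TPM in vehicle_a. The BMP4 libraries lay above the vehicle libraries for each of these 3, by less for Hsd17b7, where the groups nearly met. Sc5d had 13.7 and 17.7 TPM after BMP4, against 13.1 and 13.2 TPM in vehicle_a. With the block and estimated reads in place of TPM (limma voom), 6 of the 30 passed: Insig1, Idi1, Hmgcs1, Hsd17b7, Cyp51 and Msmo1, all higher, where 5.97% of loci passed. With isolation as a random effect Insig1 alone of the 30 passed (limma adjusted p = 0.0431), where 2.41% of loci passed.

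Lower in both isolations were Mvk, Mvd, Fdps, Fdft1, the Tm7sf2 locus, Dhcr7, Srebf2, Scap, Fads1, Fads2 and Fasn. Scap had 19.9 and 13.8 TPM after BMP4, against 22.0 and 16.8 TPM in vehicle_a, overlapping. Its fitted change was -0.21 (95% interval -0.35 to -0.07 with the block, limma adjusted p = 0.15). Without the block that interval was -0.70 to 0.28. Mvk had 32.2 and 35.9 TPM after BMP4, against 35.9 and 42.5 TPM in vehicle_a, a fitted change of -0.20 (limma adjusted p = 0.146 with the block). Fasn had 70.7 and 67.2 TPM after BMP4, against 80.2 and 70.6 TPM in vehicle_a (-0.13). The SREBP genes and the stearoyl-CoA desaturases had changes within 0.10 of 0 in the fit. Srebf2 had 116.6 and 126.6 TPM after BMP4, against 121.9 and 135.1 TPM in vehicle_a, and Srebf1 had 42.9 and 74.7 TPM, against 47.2 and 66.0 TPM. Scd1 had 109.7 and 117.4 TPM after BMP4, against 116.6 and 116.1 TPM in vehicle_a, and Scd2 had 558.3 and 632.0 TPM, against 589.0 and 616.3 TPM.

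**Figure D4:**
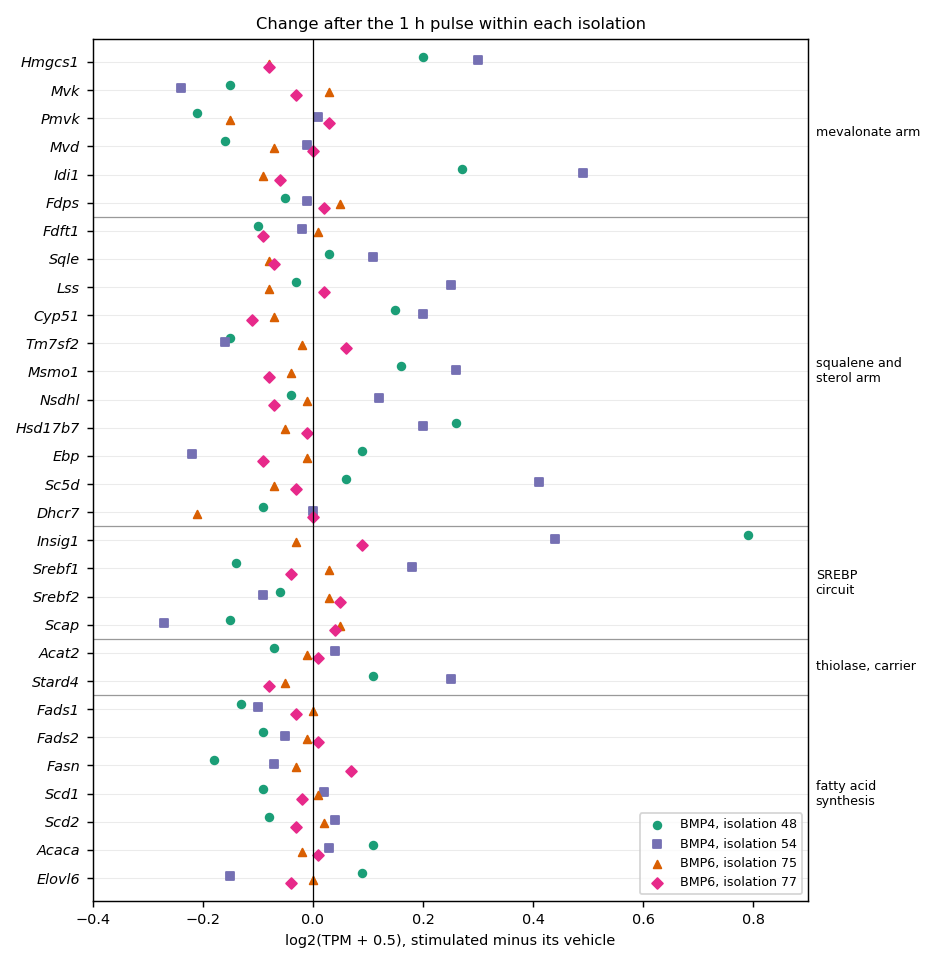
Change of each gene after the pulse within each isolation, stimulated minus its own vehicle in log2(TPM + 0.5), by role. Circles and squares are the BMP4 isolations, triangles and diamonds the BMP6 isolations. Insig1 lies furthest right with BMP4, at 0.79 and 0.44, and the BMP6 symbols lie between -0.21 and 0.09.

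The 1 h BMP6 pulse left the pathway within narrow limits of its vehicle. No gene of the 30 passed with limma, with or without the block, none had an unadjusted p under 0.05 in either fit, and 0.0118% of loci passed without the block and 0.148% with it. Fitted changes ran from -0.11 to 0.04, with a median of -0.03, against 0.00 over all loci. Insig1 had 93.7 and 68.2 TPM after BMP6, against 95.8 and 64.1 TPM in vehicle_b, a fitted change of 0.03 (95% interval -0.20 to 0.26 with the block). Idi1 had 188.8 and 106.7 TPM after BMP6, against 200.9 and 111.4 TPM in vehicle_b, and Hmgcs1 had 132.6 and 82.0 TPM, against 139.7 and 86.6 TPM. With the block the intervals were -0.23 to 0.08 for Idi1 and -0.17 to 0.02 for Hmgcs1. Without it they were wider, at -0.67 to 0.73 for Insig1, -0.91 to 0.76 for Idi1 and -0.80 to 0.65 for Hmgcs1. In each case both groups were split by isolation rather than by the pulse.

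Srebf1 had 28.4 and 25.8 TPM after BMP6, against 27.8 and 26.6 TPM in vehicle_b, and Srebf2 had 88.4 and 73.6 TPM, against 86.8 and 71.3 TPM. Scap had 24.3 and 22.8 TPM after BMP6, against 23.5 and 22.2 TPM in vehicle_b. Fasn had 100.0 and 65.3 TPM after BMP6, against 102.0 and 62.3 TPM in vehicle_b. Scd1 had 88.8 and 63.4 TPM after BMP6, against 87.9 and 64.3 TPM in vehicle_b, and Scd2 had 401.5 and 301.2 TPM, against 396.7 and 307.6 TPM. Sqle had 99.9 and 71.2 TPM after BMP6, against 105.7 and 74.7 TPM in vehicle_b. Lower values in both isolations were seen for 13 of the 30 genes (43.3%, against 27.1% of all loci). Of these, 11 were enzymes of the mevalonate and sterol arms, and the others were Stard4 and Fads1. Some of these changes were close to 0. In isolation 77 Mvd had 20.8 TPM after BMP6 against 20.8 TPM in vehicle_b, and Dhcr7 9.57 against 9.59 TPM. Higher values in both were seen for Fdps, Srebf2 and Scap (10.0%, against 26.7% of all loci).

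For the mean of both BMP responses no gene of the 30 passed with limma, where 0.071% of loci passed without the block and 0.674% with it. The unadjusted p was under 0.05 for 6 of the 30 genes with the block, a higher share than the 13.4% of all loci. Without the block it was so for none (2.40% of all loci). Insig1 had the highest mean response, 0.32 (limma adjusted p = 0.167 with the block), and Mvk and Scap the lowest, -0.10 and -0.08. For the BMP6 response minus the BMP4 response no gene passed, and 0.0% of loci passed in either fit. The unadjusted p was under 0.05 for 11 of the 30 genes with the block, a higher share than the 13.3% of all loci. Without the block it was so for none (1.44% of all loci). Neither share was tested. The difference for Insig1 was -0.58 (95% interval -0.91 to -0.26 with the block, limma adjusted p = 0.288). Without the block that interval was -1.57 to 0.40.

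The transcripts behind the locus values were compared within each library. For 1 gene of the 21 with 2 or more transcripts, Hmgcs1, the authors' split of the locus moved the same way by at least 30 percentage points in all 4 isolations. This was seen for 7 of 7905 such loci overall. The transcript that holds an extra exon of 59 bases (GRCm39 chr13:120156525-120156583) was assigned 59.7% and 71.6% of the Hmgcs1 TPM after BMP4, against 17.7% and 27.6% in vehicle_a. It was assigned 45.3% and 47.7% after BMP6, against 4.35% and 7.87% in vehicle_b. The authors' coverage of that exon, the only one that separates the transcripts by more than their ends, moved far less. As a percentage of the coverage of the next exon it was 47.2% and 53.3% after BMP4, against 37.4% and 47.1% in vehicle_a, and 30.3% and 32.2% after BMP6, against 32.5% and 44.0% in vehicle_b. It was thus higher in both BMP4 isolations and lower in both BMP6 isolations, while the assigned share was higher in all 4.

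**Figure D5:**
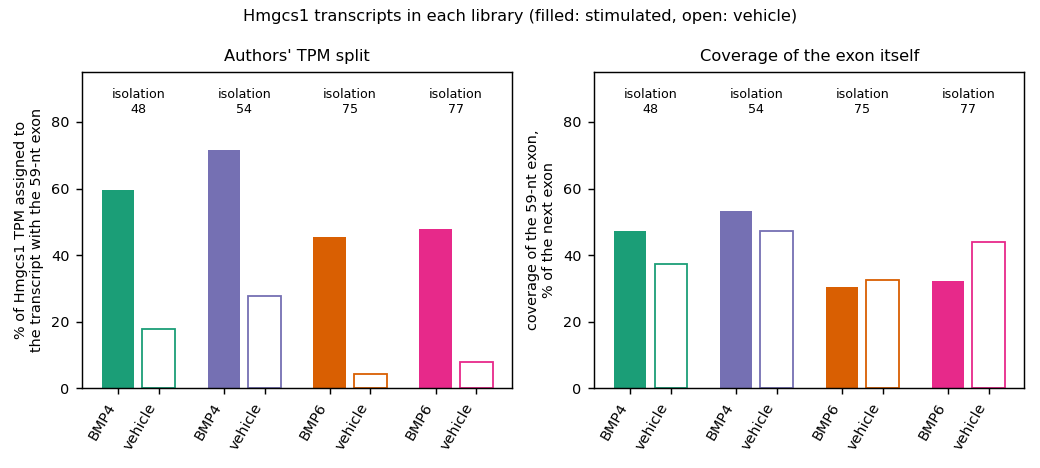
Hmgcs1 in each library, filled bars for stimulated and open bars for vehicle. The left panel gives the percentage of the gene's TPM that the authors' files assign to the transcript with the 59-base exon, and the right panel the coverage of that exon as a percentage of the next exon. The left bars differ between stimulated and vehicle by at least 30 percentage points in every isolation and the right bars by far less.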

How the data were processed

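Per the file headers and the submitters' processing notes, the authors aligned 50 nt single-end reads to GRCm39 with STAR 2.7.11a, used SAMtools 1.17 and estimated levels with StringTie 2.2.1 on a merged annotation. The deposited TPM values were the main measure. The deposited FPKM values served as an alternative. The authors' deposited coverage (signal per base) gave exon coverage and estimated reads (coverage × length / 50). StringTie was run with no correction for multiply mapped reads and no strand option, per the file headers, so overlapping genes can share reads.

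Members and lists were chosen with earlier results of these data known. Values of the loci whose mean reached 0.5 TPM were fitted as log2(TPM + 0.5) with limma 3.58.1 (R 4.3.3), 4 group means and a variance trend, and p-values were adjusted over all 16908 loci. Fold changes on this scale understate changes of low genes. Libraries of 1 isolation form pairs, per the labels, and their deviations from the group means correlated at 0.707 (BMP4 and vehicle_a) and 0.455 (BMP6 and vehicle_b). For the pulses a fit with isolation as a block is given beside the main one. Between vehicle groups no such block can be fitted, since each isolation belongs to 1 experiment. There the main fit counts the paired libraries of an isolation as independent. The 2 replicates are separate isolations. An exact permutation of 2 against 2 cannot go below p = 0.333.

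Library values are given for genes that passed, the 3 highest and 3 lowest between vehicles, the 2 highest and 2 lowest mean responses, and 7 fixed genes. For Cyb5r3, Lpcat3, Acacb, Npc1 and Elovl1, which passed between vehicles, only the difference is printed. Hmgcs1, and Id1 alone of the BMP targets, were added after their values were seen. Library values are also printed for other genes outside these rules, Mvd, Nsdhl, Elovl6 and Sc5d among them. Those genes are examples picked with their values known. Some further pathway genes are not reported here and are in no count of the pathway lists. Intervals without the block cover the spread between these libraries. Intervals and standard errors with the block leave out differences in level between isolations. After BMP4 the standard error with and without the block was 0.09 and 0.29 for Insig1, and 0.03 and 0.24 for Acsl3. The fit without the block was also run on simulated data in which all libraries varied independently. The libraries here form pairs by isolation, so that run does not show how the fits behave on paired libraries. Promoter coordinates are of GRCm38.p6 and gene coordinates of GRCm39, and they were not combined.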

Additional observations from a re-analysis of the deposited data

Results flagged for a closer look

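For 11 of the 30 genes both BMP6 isolations had changes of one sign and both BMP4 isolations of the other, 36.7% of the genes and 16.9% of all loci. The difference between the responses (BMP6 minus BMP4, log2) was tested for each and passed for none with limma, with or without the isolation block. With the block the adjusted p ranged from 0.255 to 0.544. Some of the changes behind the 11 genes were near 0, such as -0.01 for Fdps in isolation 54 and -0.01 for Hsd17b7 in isolation 77.

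Lower with BMP6 and higher with BMP4 were 8 genes. The difference was -0.46 for Idi1, -0.33 for Hmgcs1 and -0.28 for Sc5d. It was -0.26 for Cyp51, -0.26 for Msmo1 and -0.26 for Hsd17b7. It was -0.24 for Stard4 and -0.15 for Sqle. Higher with BMP6 and lower with BMP4 were Scap with a difference of 0.25, Srebf2 with 0.11 and Fdps with 0.07. The groups hold 2 libraries each, so no library was examined for standing apart within its group.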

How the results depend on the processing

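Between vehicle groups, 3 genes passed under 13 of the 21 alternatives. The count was 1 with no filter on low values, where 7.84% of all loci passed. It was 6 with isolation as a random effect (Mvk, Dhcr7 and Scd1 added), where 27.0% of all loci passed. With the mean of both libraries of each isolation it was 1, where 13.4% of all loci passed. The median of the 30 genes was -0.42 to -0.18 over the other alternatives and -0.59 to 0.02 with 1 library left out. On estimated reads the median over all loci was 0.10 and that of the genes -0.18. For BMP4 the count was 0 with the replicate block (0.633% of all loci) and 1 with isolation as a random effect (2.41% of all loci). It was 6 with the replicate block on estimated reads (5.97% of all loci). With 1 library left out the medians were -0.05 to 0.07 for BMP4, -0.39 to 0.30 for BMP6, -0.14 to 0.17 for the mean response and -0.40 to 0.26 for the difference. Leaving 1 library out breaks a pair. The BMP6 median was -0.03 or -0.02 under all other alternatives, pseudocount 2, median-of-ratios scaling, FPKM and isolation 75 or 77 left out with the replicate block among them. The replicate block changed no call among the 30 genes. Of the other genes named here, it added calls for Id1 with both ligands and for Acsl3 with BMP4 and in the mean response. It also added a call for Cspg4 in the mean response. The Tm7sf2 transcripts alone, an alternative chosen after seeing the data, gave -0.12 between vehicles, against -0.35 for the locus. No direction of a passed gene reversed. Causes were not tested. Where 1 library was left alone in a group, it was assumed to vary like the others.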

Other observations

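Of 39 further genes of sterol and fatty acid metabolism, 32 passed 0.5 TPM. Between vehicle groups 1 was higher and 10 were lower in vehicle_b (limma, adjusted p under 0.05), 11 of 32 where 27.2% of all loci passed. Gpam, which starts triglyceride synthesis, had 11.2 and 12.6 TPM in vehicle_b, against 32.4 and 31.8 TPM in vehicle_a (-1.40 ± 0.11, limma adjusted p = 0.00398). Its groups lay far apart and its isolations close together. The acetyl-CoA acetyltransferase Acat1 had 13.1 and 10.7 TPM in vehicle_b, against 25.0 and 50.5 TPM in vehicle_a (-1.55 ± 0.44, limma adjusted p = 0.0451). Insig2, the second Insig gene, had 9.27 and 9.20 TPM in vehicle_b, against 16.3 and 20.4 TPM in vehicle_a (-0.95 ± 0.20, limma adjusted p = 0.0236). Soat1, which esterifies cholesterol, was the gene that was higher, with 19.3 and 27.0 TPM in vehicle_b, against 12.4 and 6.89 TPM in vehicle_a (1.26 ± 0.35, limma adjusted p = 0.042). Also lower were the reductase Cyb5r3 (-1.04), Lpcat3 (-0.71), Mylip (-1.14), the carboxylase Acacb (-1.12), Acsl3 (-0.99), the sterol transporter Npc1 (-0.99) and the elongase Elovl1 (-0.80). The 7 differentiating muscle markers were also lower in vehicle_b, as given above, and their part was not tested.

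After the pulse 1 of the 32 passed with isolation as a block and none without it. It passed for BMP4, where 0.633% of all loci passed, and for the mean response (0.674% of all loci). None of the 32 passed for BMP6 with the block, where 0.148% of all loci passed. Acsl3, a long-chain acyl-CoA synthetase of lipid droplets, had 140.7 and 201.9 TPM after BMP4, against 103.7 and 147.3 TPM in vehicle_a. The log2 change was 0.44 and 0.45 in the 2 isolations (fitted 0.45 ± 0.03, limma adjusted p = 0.023 with the block). After BMP6 it had 80.7 and 69.3 TPM, against 67.7 and 56.6 TPM in vehicle_b, a fitted change of 0.27 ± 0.03 that did not pass (limma adjusted p = 0.143 with the block). It was higher in 4 of 4 isolations. Mylip, a ubiquitin ligase and LXR target, had changes of 0.22 and 0.77 after BMP4 and of 0.42 and 0.40 after BMP6. It did not pass for either ligand, and its level was low, at 0.849 to 5.58 TPM per library. The 5 tested genes of sterol efflux and LXR, Mylip among them, had median changes of -0.18 after BMP4 and 0.0 after BMP6.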
